A study of Mus musculus with 48 samples.

Results

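Gene expression in the cortex of WT mice was set against that of whole brain at 10 months of age. The comparison used 3 cortex and 3 whole brain samples, which are 6 of the 24 mRNA arrays and 6 of the 48 arrays of the series, and these samples were taken by genotype, age and tissue alone. All 6 came from male C57BL/6J mice without the Tg2576 transgene, a mutant human APP gene that the other genotype of the series carries, and no treatment is named for them. The series also holds Tg2576 mice and mice of 17 months, each again as cortex and as whole brain with 3 samples per group. A whole brain sample contains the cortex as well, so each difference is between a region and a mixture that includes it. How much of the olfactory bulb, cerebellum, brainstem and pituitary stayed in a sample is not given in the sources used here.

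The mammalian forebrain is patterned by transcription factors that are kept in adult neurons, so each brain region can be read from a few genes. Emx1 and Tbr1 mark the dorsal telencephalon and its glutamatergic neurons, Tcf7l2 the thalamus, and peptides such as melanin-concentrating hormone and orexin small neuron groups of the lateral hypothalamus. Dopamine neurons of the midbrain share an enzyme and transporter set, and Purkinje and granule cells of the cerebellum carry genes that few other neurons use. In bulk RNA, fewer cells of a type and less RNA per cell cannot be told apart.

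Each array measured 55681 non-control probes in 1 colour. A level below is the log2 of a probe's signal minus that of the 75th percentile of its array, so 0 is the 75th percentile, and a difference is cortex minus whole brain on the log2 scale. Between 36424 and 41087 probes were well above background on an array, the 75th percentile signal lay between 665 and 746, and no probe was saturated. With 3 arrays per tissue the number of arrays limits the precision, and as the labels do not tie arrays to animals, p-values measure the spread between these samples. The 3 cortex arrays lay on slide 1 and the 3 whole brain arrays on slide 2, so tissue and slide cannot be told apart within them. The other 18 mRNA arrays share no array with this comparison, and their own difference (9 cortex and 9 whole brain arrays in 3 groups of genotype and age) is given beside the values below. Tissue and slide ran together there too, since slide 1 held 5 cortex arrays, slide 3 held 8 whole brain arrays, and slide 2 held 4 cortex arrays and 1 whole brain array. Of 127 genes examined singly these 18 arrays called 50, of which 0 were called in limma with slide as a fixed block, a setting added after seeing the data that rests on that 1 whole brain array, and 48 of the 50 kept their sign. Over all probes the count went from 12640 to 95. The adjusted p-values of the other 18 arrays below are without that block.

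Cortex replicate 1 stood apart in genes of the hypothalamus. Pmch encodes the precursor of melanin-concentrating hormone, a lateral hypothalamic peptide that promotes feeding. Its levels were 3.44, -3.65 and -3.55 in cortex replicates 1, 2 and 3, against 3.27, 3.47 and 3.38 in whole brain. Cortex replicate 1 thus lay at the whole brain level, while the other two cortex arrays lay far below it. Hcrt, which encodes the orexin precursor of wake-promoting lateral hypothalamic neurons, followed the same order, with 3.34, -3.02 and -3.15 in cortex and 2.95, 3.07 and 2.74 in whole brain. Oxt, the oxytocin gene of magnocellular neurons, had cortex levels of 4.21, 0.58 and 1.56 and whole brain levels of 3.91, 3.22 and 3.86. Avp, the vasopressin gene of the same neuron class, had 2.64, 0.46 and 0.95 in cortex and 2.29, 2.14 and 2.45 in whole brain. In all 4 genes cortex replicate 1 was the highest or among the highest of the 6 arrays, and cortex replicates 2 and 3 lay below every whole brain array. These 4 peptide genes are not the only ones that set cortex replicate 1 apart from the other cortex samples. Their promoter windows are shown as a description. They come from RefSeq (GRCm38.p6) and read 5′ to 3′ on the strand of transcription, and the capitals mark the letters ATAAA, searched on that strand from 40 to 6 bases before the annotated start.
Pmch, chr10:88091034-88091063, plus strand: gacagaaagtatATAAAggtggggatcatt
Hcrt, chr11:100762946-100762975, minus strand: cctcagagcattATAAAcccctggcccctg
Oxt, chr2:130576131-130576160, plus strand: cagtgcccagacATAAAaaggtcggtctgg
Avp, chr2:130582584-130582613, minus strand: acacctgcagacATAAAtaggcagcccagc
The first capital lay 26, 32, 26 and 13 bases before the start in Pmch, Hcrt, Oxt and Avp, and the Avp window runs past the start. Of 32851 RefSeq mouse promoters 1674 (5.1%) hold these letters in the same stretch. Neither an enrichment of the letters nor a link to the levels was tested.

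**Figure D1:**
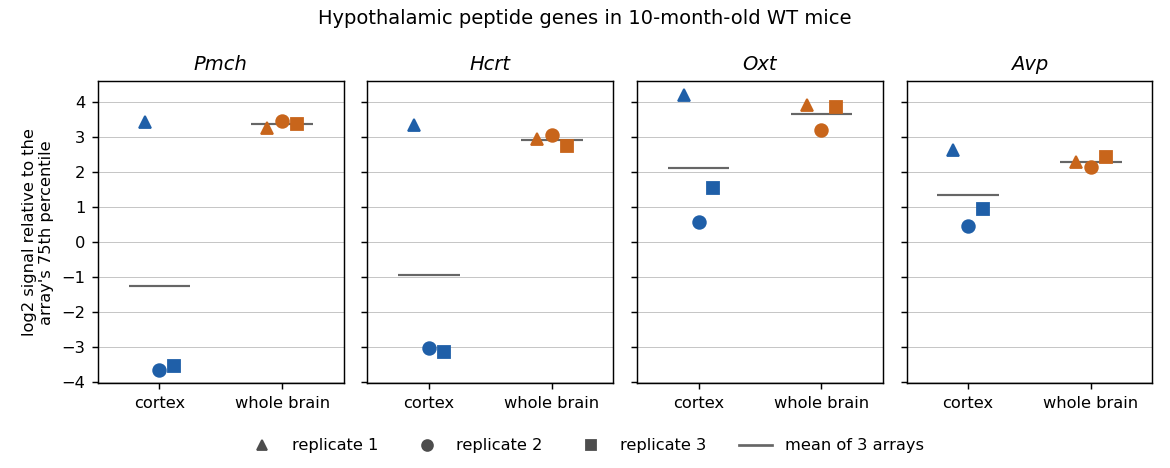
Levels of Pmch, Hcrt, Oxt and Avp (log2 signal relative to the 75th percentile of the array) on the 3 cortex and 3 whole brain arrays, with triangles for replicate 1, circles for replicate 2, squares for replicate 3 and bars for the means. Cortex replicate 1 sits among the whole brain arrays, whereas Pmch in cortex replicates 2 and 3 is at -3.65 and -3.55.

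None of the 4 peptide genes passed limma's moderated test over the 6 arrays. Pmch differed by -4.62 (SE 1.91, adjusted p = 0.214) and Hcrt by -3.86 (SE 1.75, adjusted p = 0.246), with Oxt at -1.55 and Avp at -0.94. Without cortex replicate 1 the differences were -6.97 for Pmch, -6.01 for Hcrt, -2.60 for Oxt and -1.59 for Avp. As that sample was singled out for its levels of these same genes, these differences are a description with no test. The other cortex groups were spread as well. Pmch ranged from -3.05 to 3.68 in Tg cortex at 10 months, from -0.61 to 3.75 in WT cortex at 17 months and from 2.07 to 3.75 in Tg cortex at 17 months, while every whole brain array of those groups lay between 2.91 and 3.61. Hcrt ranged from -3.20 to 3.19, from -0.71 to 3.45 and from 0.76 to 3.87 in these cortex groups. Over the other 18 arrays the difference was -1.70 for Pmch (adjusted p = 0.0843) and -2.06 for Hcrt (adjusted p = 0.0447). Of 19750 genes compared, 63 were over 2-fold higher in cortex replicate 1 than in both other cortex samples and 80 were over 2-fold lower. The same counts were 139 and 7 for cortex replicate 2 and 19 and 67 for cortex replicate 3, so in number of genes replicate 1 did not stand out from replicate 2. The whole brain replicates had 129, 61 and 82 such genes above and 94, 25 and 15 below.

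Few probes passed the test over all 6 arrays. Of 39478 probes tested, 2 were higher in cortex (0.00507%) and 2 were lower (0.00507%) at a Benjamini-Hochberg adjusted p under 0.05. The smallest adjusted p was 0.00279, for a probe that was well above background in cortex alone. An unadjusted p under 0.05 was found for 4705 probes higher (11.9%) and 4670 lower (11.8%), and 2535 probes had an adjusted p under 0.1. With 1 probe a gene, 0 of 16163 genes were called higher (0%) and 2 lower (0.0124%), against 1627 (10.1%) and 2070 (12.8%) at an unadjusted p under 0.05. All 3 cortex arrays lay above all 3 whole brain arrays in 2235 genes (13.8%) and below them in 3095 (19.1%), and these shares are the background for the counts without overlap given below. A limma variance trend with robust estimation, added after seeing the data, called 572 genes higher (3.54%) and 851 lower (5.27%), and 1395 probes higher (3.53%) and 1917 lower (4.86%). Without cortex replicate 1 it called 488 genes higher (3.02%) and 763 lower (4.72%). Of the genes with an unadjusted p under 0.05, 2956 (80%) had the same sign in the other 18 arrays. The median difference over all genes tested was -0.01. Past 2-fold with an unadjusted p under 0.05, 32 genes were higher in cortex and 131 were lower.

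Both genes that passed the test were lower in cortex. Chrna6 encodes the alpha-6 subunit of nicotinic acetylcholine receptors, carried mainly by dopamine neurons of the midbrain. Its levels were -2.41, -2.47 and -2.52 in cortex and -0.59, -0.39 and -0.21 in whole brain, without overlap and with the cortex arrays close together. Chrna6 was lower by 4.19-fold (difference -2.07, SE 0.11, limma adjusted p = 0.0169), and the other 18 arrays gave -1.24 (adjusted p = 0.0046). Agtr2, the type 2 angiotensin receptor, had levels of -5.00, -5.11 and -5.18 in cortex and -3.97, -3.99 and -3.94 in whole brain. These are low levels on the array, and the groups did not overlap. Agtr2 was lower by 2.19-fold (difference -1.13, SE 0.07, adjusted p = 0.0354), and in the other 18 arrays by -0.33 (adjusted p = 0.244). Both calls were lost without cortex replicate 2 or 3 or whole brain replicate 2 (adjusted p 0.121 to 0.174 in limma), and that of Agtr2 also without whole brain replicate 1 (0.0755) or 3 (0.0766). In a fit of 24 arrays with slide as a random block the adjusted p was 0.0566 for Chrna6 and 0.106 for Agtr2, and a tissue difference common to 4 groups with slide as a fixed block was -0.98 (adjusted p = 0.324) for Chrna6 and -0.90 (adjusted p = 0.295) for Agtr2. With normexp background correction the Agtr2 difference was -0.34. The other two called probes have no gene name here and were higher in cortex. One differed by 2.51 (adjusted p = 0.00364), was not well above background on any whole brain array and was therefore at least 1.17-fold higher, where such a bound sets the mean of the bright group against the lowest signal measured above background in the dim one. The other differed by 1.73 (adjusted p = 0.00279) with no bound above 1. It was well above background on 2 cortex arrays and on no whole brain array. Both probes thus entered the test through cortex, the group where they are high. Their differences rest on background signal in whole brain and have no exact size.

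Genes of cortical glutamatergic neurons lay higher in cortex. Of 20 genes listed for these neurons 19 were tested, since Nov had no named probe. In 15 of the 19 all cortex arrays lay above all whole brain arrays and in 0 below, against 13.8% and 19.1% of all genes, and the median difference was 0.40. None passed the test with adjustment, 14 had an unadjusted p under 0.05, and the variance trend called 9. Lhx2, a selector of cortical identity, had levels of 3.09, 3.38 and 3.32 in cortex and 2.73, 2.76 and 2.81 in whole brain. It was separated on every array and differed by 0.50 (SE 0.09, adjusted p = 0.0765, with the variance trend 0.0079).

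Neurod6, a bHLH factor of cortical pyramidal neurons, had 1.40, 1.56 and 1.59 against 0.97, 1.05 and 1.18, a difference of 0.45 (SE 0.09, adjusted p = 0.0794, with the trend 0.0108). Mef2c, an activity-dependent factor that shapes excitatory synapses, differed by 0.62 (adjusted p = 0.0779), Camk2a, a synaptic kinase, by 0.43 (adjusted p = 0.106), Kcnv1, a silent potassium channel subunit, by 0.47 (adjusted p = 0.105) and Tbr1, a deep layer factor, by 0.40 (adjusted p = 0.177). Slc17a7, the vesicular glutamate transporter of cortical neurons, differed by 0.24 and Emx1, a dorsal telencephalic homeobox gene, by 0.20. The other 18 arrays gave a smaller median for the list, 0.09, with 1 gene called higher and 1 lower against 12.4% and 17% of all genes. There Neurod6 differed by 0.12 (adjusted p = 0.407) and Lhx2 by -0.03 (adjusted p = 0.853).

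**Figure D2:**
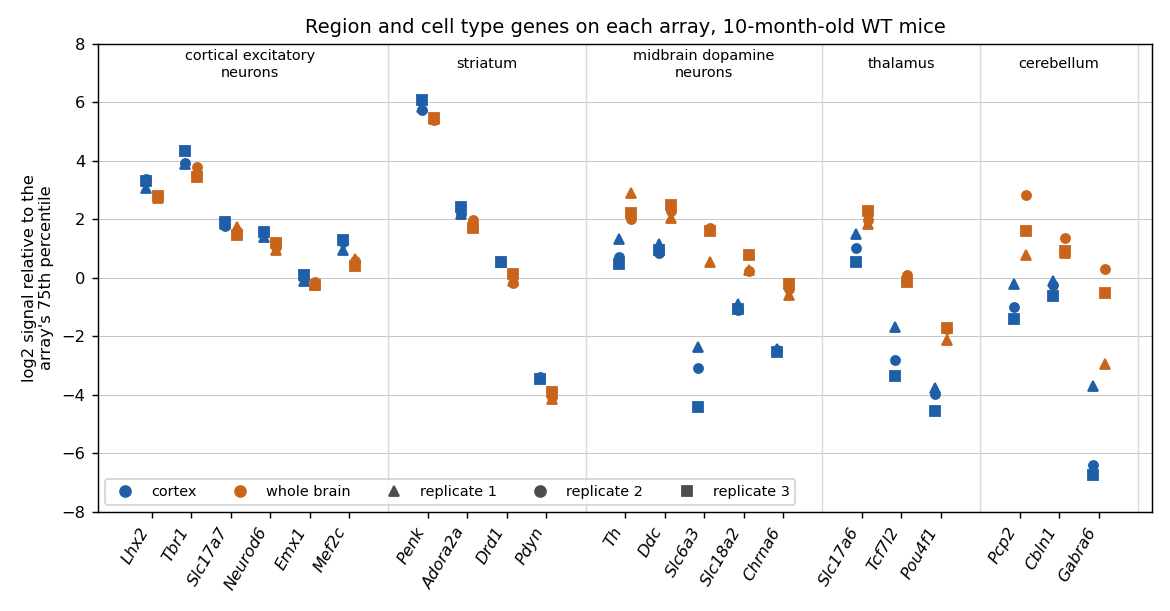
Levels (log2 signal relative to the 75th percentile of the array) of named genes on each cortex array (blue) and whole brain array (orange), grouped as cortical, striatal, dopamine, thalamic and cerebellar genes. The 3 cortex points of Neurod6 (1.40 to 1.59) lie above the 3 whole brain points (0.97 to 1.18), and those of Slc6a3 (-4.40 to -2.37) lie below (0.56 to 1.72).

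Genes of single cortical layers lay on the same side where the tissues were separated. All 22 listed were tested, 7 lay higher in cortex on every array and 0 lower, the median difference was 0.20, and the variance trend called 2. Rorb, an orphan nuclear receptor of layer 4, had levels of 0.39, 0.42 and 0.49 in cortex and -0.16, -0.08 and 0.14 in whole brain, a difference of 0.47 (SE 0.09, adjusted p = 0.0816, with the trend 0.0128). The other 18 arrays gave 0.40 for Rorb (adjusted p = 0.000481). Lmo3 differed by 0.40 (adjusted p = 0.115), Ccn2, a secreted matrix protein of layer 6b, by 0.39 (adjusted p = 0.149), and Reln, the secreted guidance protein of Cajal-Retzius cells, by 0.29 (adjusted p = 0.0899). The groups overlapped in Fezf2, a factor of layer 5 corticospinal neurons, in Cux2, an upper layer factor, and in Rasgrf2, with differences of 0.22 to 0.23.

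Genes of inhibitory interneurons were mixed. Of 22 tested, 4 lay higher in cortex on every array and 2 lower, with a median difference of 0.09. Npy, Cck and Htr3a, of peptide and serotonin receptor bearing interneurons, differed by 0.42 (adjusted p = 0.136), 0.36 (adjusted p = 0.116) and 0.31 (adjusted p = 0.09). Pvalb, the calcium buffer of fast-spiking interneurons that cerebellar and brainstem neurons also use, lay on the other side, with 4.32, 4.41 and 4.60 in cortex and 4.71, 5.31 and 4.95 in whole brain. Its difference was -0.55 (SE 0.17, adjusted p = 0.133), and the other 18 arrays gave -0.49 (adjusted p = 0.0327). Calb2, the calretinin gene of interneurons and of thalamic and olfactory neurons, had a difference of -1.61 (adjusted p = 0.146). Gad1, the GABA synthesizing enzyme of all these cells, differed by 0.14 with overlapping arrays, and Sst, the somatostatin gene, by 0.12 without overlap. Of 13 hippocampal genes tested of 15, 3 lay higher on every array and 1 lower, with a median of -0.02, and Wfs1, a CA1 marker, differed by 0.36 (adjusted p = 0.112).

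Striatal genes lay higher in the cortex samples as well. All 18 genes listed for striatal projection neurons were tested, 12 lay higher in cortex on every array and 0 lower, the median difference was 0.36, and 10 were called by the variance trend. Drd1, the dopamine receptor of the direct pathway, had 0.54, 0.54 and 0.53 in cortex and -0.09, -0.19 and 0.12 in whole brain. The cortex arrays were nearly equal, and the difference was 0.59 (SE 0.09, adjusted p = 0.068, with the trend 0.00649). Pdyn, the dynorphin precursor of direct pathway neurons, differed by 0.62 (adjusted p = 0.0633), and Pde10a, a striatal phosphodiesterase, by 0.55 (adjusted p = 0.0822). Penk and Adora2a, the enkephalin precursor and adenosine receptor of the indirect pathway, differed by 0.45 and 0.39, and Ppp1r1b, the dopamine-regulated phosphoprotein DARPP-32, by 0.29. Drd2, the receptor of the indirect pathway, had a difference of 0.29 with overlapping arrays (-2.56, -2.75 and -2.18 against -2.81, -2.89 and -2.67). In the other 18 arrays 9 of the 18 striatal genes were called higher and 1 lower, against 12.4% and 17% of all genes. The list median there was 0.33, and Pdyn differed by 0.99 (adjusted p = 1.7e-05) and Drd2 by 0.91 (adjusted p = 7.8e-05). Whether the cortex was dissected with striatal tissue attached is not given in the sources used here.

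Many but not all genes of the thalamus and habenula lay lower in cortex. All 15 listed were tested, 8 were lower on every array and 0 higher, against 19.1% and 13.8% of all genes, and the median difference was -0.92. The tissues overlapped in Lef1 (difference 0.01, adjusted p = 0.972) and Prkcd (-0.50, adjusted p = 0.575). They also overlapped in Rora (-0.09), Rgs16 (-0.19), Tac2 (-0.19), Synpo2 (0.03) and in Gbx2, given below. Tcf7l2, the factor that specifies thalamic neurons, had levels of -1.67, -2.79 and -3.35 in cortex and 0.01, 0.10 and -0.14 in whole brain. Cortex replicate 1 was the nearest to whole brain, and the difference was -2.59 (SE 0.41, 6.03-fold, adjusted p = 0.068), with 3 probes of the gene between -2.59 and -0.25. Without cortex replicate 1 it was -3.06, a description with no test. Pou4f1, a factor of habenular neurons, had -3.78, -3.95 and -4.53 against -2.12, -1.76 and -1.71, a difference of -2.23 (SE 0.22, adjusted p = 0.059, with the trend 0.00154). Slc17a6, the glutamate transporter of subcortical neurons, had 1.5, 1.04 and 0.54 against 1.83, 1.99 and 2.30, a difference of -1.01 (SE 0.26, adjusted p = 0.105). It thus ran opposite to Slc17a7, its cortical counterpart.

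The patterning factors Irx1 and Zic4 differed by -2.06 (adjusted p = 0.0759) and -0.92 (adjusted p = 0.0745). Irx2, of the same homeobox family, differed by -4.24 (adjusted p = 0.0849) and was well above background on 1 of the 3 cortex arrays. Gbx2, a thalamic homeobox gene, overlapped, with -3.44, -5.02 and -5.58 in cortex and -3.38, -3.58 and -3.21 in whole brain, where cortex replicate 1 again lay nearest to whole brain. Its difference was -1.29 (adjusted p = 0.212), and -1.91 without cortex replicate 1, a description with no test. The variance trend called 3 thalamic genes, and the list median without cortex replicate 1 was -1.04. The other 18 arrays called 6 of 15 lower, against 17% of all genes, with Tcf7l2 at -1.56 (adjusted p = 0.00226) and Pou4f1 at -1.61 (adjusted p = 0.00413). With normexp, which narrows differences of dim probes, Irx2 differed by -1.57, Pou4f1 by -1.25 and the list median by -0.48.

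The hypothalamic list had a median difference below 0, and of the cortex arrays replicate 1 had the median level nearest to whole brain. Of 22 genes 20 were tested, Otp and Sim1 not being well above background. On every array 4 were lower in cortex, near the share of all genes (19.1%), and 0 higher. The median difference was -1.06 over the 6 arrays, and the variance trend called 1 gene lower, near its share of all genes (5.27%). Without cortex replicate 1 the median difference was -1.43. That is a description with no test, since this array was singled out for genes of this list. The median level of the listed genes was 0.05, -1.56 and -1.54 in cortex replicates 1, 2 and 3 and 0.30, 0.21 and 0.27 in whole brain. Apart from the 4 peptides above, Hdc, the histamine synthesizing enzyme of tuberomammillary neurons, had levels of -1.05, -1.56 and -1.87 in cortex and -0.60, -0.59 and 0.04 in whole brain, a difference of -1.11 (SE 0.26, adjusted p = 0.0962). Nms, the neuromedin S gene of the suprachiasmatic nucleus, differed by -1.76 (adjusted p = 0.0823, with the trend 0.0156), and by -0.45 with normexp. Agrp, the orexigenic peptide of the arcuate nucleus, and Pomc, the precursor of melanocortins in arcuate neurons and pituitary cells, had overlapping arrays. Pomc ranged from 1.34 to 6.40 in whole brain alone.

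Most midbrain dopamine genes lay lower in cortex. Of 14 listed 13 were tested, En1 not being well above background, and 10 of the 13 lay lower in cortex on every array and 0 higher, with a median difference of -1.53. Chrna6 is 1 of these and the only called one, and the variance trend called 6. Slc6a3, the dopamine transporter, had levels of -2.37, -3.09 and -4.40 in cortex and 0.56, 1.72 and 1.60 in whole brain. The groups were far apart on every array, and the difference was -4.58 (SE 0.57, adjusted p = 0.0628). Slc18a2, the vesicular monoamine transporter, had -0.89, -1.11 and -1.06 against 0.27, 0.24 and 0.80, a difference of -1.46 (SE 0.17, adjusted p = 0.0628, with the trend 0.0035). Ddc, the decarboxylase that makes dopamine and serotonin, had 1.16, 0.84 and 0.95 against 2.06, 2.30 and 2.48, a difference of -1.29 (SE 0.14, adjusted p = 0.0604). Th, the rate-limiting enzyme of catecholamine synthesis, had 1.34, 0.73 and 0.47 against 2.89, 2.03 and 2.21, a difference of -1.53 (SE 0.30, adjusted p = 0.0804). Enzyme and transporters thus lay lower on every cortex array, although none of these 4 passed the test.

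The 3 genes that overlapped were transcription factors of these neurons. Nr4a2 differed by 0.15 (adjusted p = 0.385), Lmx1b by 0.12 (adjusted p = 0.448) and Pitx3 by -0.07 (adjusted p = 0.575). The 2 probes of Nr4a2 differed by 0.15 and 0.57. Ret, the receptor of glial-derived neurotrophic factor, differed by -2.12 (adjusted p = 0.0748) and Aldh1a1, a retinaldehyde dehydrogenase of ventral dopamine neurons, by -0.69 (adjusted p = 0.0654). Foxa2, a factor of the midbrain floor, was not well above background on any cortex array and was at least 2.76-fold lower in cortex (adjusted p = 0.059). Foxa1, its relative, was well above background on 1 cortex array and differed by -3.65 (adjusted p = 0.0867). Without cortex replicate 1 the difference was -2.56 for Ret, a description with no test. That of Foxa1 then rests on background signal in cortex and has no exact size. The other 18 arrays called 8 of 13 dopamine genes lower, against 17% of all genes. The list median there was -0.76, with Slc6a3 at -2.50 (adjusted p = 0.00218). In Tg cortex at 17 months Slc6a3 ranged from -1.66 to 2.43, overlapping the whole brain arrays of the same group, at 1.59 to 1.88. Averaging the probes of each gene gave a list median of -1.96.

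Serotonin and noradrenaline genes were dim. Of 13 listed 9 were tested, 3 lay lower in cortex on every array and 1 higher, and the median difference was -0.33. Gata3, a factor of serotonin and hindbrain neurons, had levels of -2.76, -2.08 and -2.05 in whole brain. It was not well above background on any cortex array, so it was at least 12.3-fold lower (adjusted p = 0.0628). Slc6a4, the serotonin transporter, had -4.88, -6.04 and -6.44 in cortex and -4.85, -3.15 and -1.69 in whole brain, a difference of -2.56 (adjusted p = 0.15). It was well above background on 1 cortex array, so the difference has no exact size. Whole brain replicate 1 was at the level of cortex replicate 1. Tph2, the serotonin synthesizing enzyme of the raphe, overlapped (difference -1.80, adjusted p = 0.211). It was well above background on 1 cortex array and 2 whole brain arrays, so its difference has no exact size either. Gch1, which makes the cofactor of Th and Tph2, differed by -0.67 (adjusted p = 0.0966). Phox2a, Slc6a2 and Slc22a3 were not well above background.

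Among 9 cholinergic and motor neuron genes tested of 12, 2 lay lower on every array, near the share of all genes. Chat, Slc18a3 and Slc5a7, the synthesizing enzyme, the vesicular transporter and the choline transporter of cholinergic neurons, overlapped between the tissues and differed by -0.04 (adjusted p = 0.822), 0.07 (adjusted p = 0.852) and -0.10 (adjusted p = 0.831). Prph, an intermediate filament of motor and sensory neurons, differed by -1.27 (adjusted p = 0.079). Among 8 genes of glycine neurons and receptors tested of 9, 2 lay lower and 2 higher, and Glra1, the adult glycine receptor subunit of brainstem and cord, differed by -2.30 (adjusted p = 0.113) and was well above background on 1 cortex array. Of 22 Hox genes, which mark hindbrain and spinal cord, 3 passed the filter on dim probes, and their median difference was -0.27.

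Many cerebellar genes lay lower in cortex, with wide variation in whole brain. Of 24 listed 23 were tested, 10 were lower on every array and 3 higher, against 19.1% and 13.8% of all genes, and the median difference was -0.38. The 3 higher were Grm4 (0.34, adjusted p = 0.112), Gdf10 (0.31, adjusted p = 0.105) and Reln (0.29, adjusted p = 0.0899). In limma over 24 arrays with slide as a fixed block, Grm4 (0.52, adjusted p = 0.0358) was the only list member called. Gabra6, the GABA-A subunit of granule cells, had levels of -3.70, -6.40 and -6.74 in cortex and -2.92, 0.29 and -0.50 in whole brain, so whole brain replicate 1 lay nearer to cortex replicate 1 than to the other whole brain arrays. The difference was -4.57 (SE 1.11, adjusted p = 0.0992), and it was well above background on 1 cortex array. Pcp2, of Purkinje and bipolar cells, had -0.19, -0.99 and -1.39 against 0.78, 2.84 and 1.59, a difference of -2.60 (SE 0.57, adjusted p = 0.0867). Cbln1, the granule cell protein that joins parallel fibres to Purkinje cells, had -0.10, -0.24 and -0.61 against 0.85, 1.38 and 0.92, a difference of -1.36 (SE 0.19, adjusted p = 0.0654, with the trend 0.012). In Gabra6, Pcp2 and Cbln1 whole brain replicate 1 was the lowest of the whole brain arrays.

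En2, a midbrain and cerebellar homeobox gene, differed by -1.57 (adjusted p = 0.0856), Zic1, a granule cell factor, by -0.95 (adjusted p = 0.107), Crtam by -2.73 (adjusted p = 0.108) and Slc1a6, the Purkinje cell glutamate transporter, by -0.64 (adjusted p = 0.0888). Cbln3, another granule cell cerebellin, was well above background on 2 whole brain arrays and on no cortex array and was at least 1.28-fold lower (adjusted p = 0.184). In the other 18 arrays 6 of 23 cerebellar genes were called lower and 2 higher, against 17% and 12.4% of all genes. Gabra6 differed there by -3.07 (adjusted p = 0.052). With normexp the Gabra6 difference was -2.31. In 11 of 14 olfactory bulb genes tested whole brain replicate 1 was the highest of the whole brain arrays. Eomes, of mitral cells, had -1.52, -4.12 and -3.89 in whole brain and -3.10, -4.11 and -4.76 in cortex, and Omp, of olfactory sensory axons, had 0.58, -3.04 and -2.08 against -3.05, -3.09 and -3.78. Of the 14 genes tested of 15, 3 lay lower in cortex on every array, and the median was -0.77 over the 6 arrays, -0.07 without whole brain replicate 1, -0.43 without cortex replicate 3, -1.18 without whole brain replicate 2 and 0.15 in the other 18 arrays.

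The pituitary hormone genes Prl and Gh differed more within a tissue than between tissues. Prl, the prolactin gene of lactotrophs, had levels of 0.96, 3.74 and -0.28 in cortex and -0.68, 4.55 and 7.38 in whole brain, a difference of -2.28 (SE 2.15, adjusted p = 0.551). Gh, the growth hormone gene of somatotrophs, had -3.16, -0.23 and -4.25 against -4.94, 0.37 and 2.59, a difference of -1.89 (SE 2.06, adjusted p = 0.609). Replicate 2 of both tissues and replicate 3 of whole brain were the high arrays in both genes. Pitx1, a factor of the anterior pituitary, was well above background on 2 whole brain arrays and on no cortex array and was at least 2.55-fold lower (adjusted p = 0.0821). Of 7 pituitary genes tested of 11, 1 lay lower on every array, and the list median was -1.89. With 1 array left out it ranged from -3.62 without whole brain replicate 1 to -0.25 without whole brain replicate 3. It was -3.23 without cortex replicate 2, -1.22 without cortex replicate 3 and -0.75 without whole brain replicate 2. The list median was -0.78 with normexp and -0.56 in the other 18 arrays. For a tissue difference common to 4 groups over 24 arrays, with slide as a fixed block, it was 0.36.

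Choroid plexus genes overlapped between the tissues. Ttr, the thyroxine carrier secreted by the plexus, had levels of 5.85, 5.73 and 3.58 in cortex and 3.73, 5.09 and 4.43 in whole brain, a difference of 0.63 (SE 0.68, adjusted p = 0.603). Cortex replicates 1 and 2 were the highest arrays and cortex replicate 3 the lowest, and Kl and Folr1, of the same epithelium, followed that order within cortex. Of 18 plexus genes 1 lay lower on every array and 0 higher, Otx2, a homeobox gene of plexus and midbrain, with -0.35, -0.89 and -2.42 against -0.34, 0.36 and 0.21 (difference -1.29, adjusted p = 0.214). Ependymal genes lay lower, 6 of 11 on every array and 0 higher, with a median of -0.56. Tmem212, of ciliated cells, differed by -1.26 (adjusted p = 0.125), Rarres2, the chemerin gene, by -0.69 (adjusted p = 0.104), and Foxj1, the master factor of motile cilia, by -0.38 (adjusted p = 0.153). Ccdc153, another cilia gene, differed by -0.78 with overlapping arrays.

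Oligodendrocyte genes differed little in size. All 25 were tested, 8 lay lower in cortex on every array and 0 higher, the median difference was -0.19, and the variance trend called 4. Ermn, a cytoskeletal protein of myelinating cells, had 5.29, 5.59 and 5.42 in cortex and 6.07, 5.90 and 5.68 in whole brain, a difference of -0.45 (SE 0.13, adjusted p = 0.121). In the other 18 arrays it differed by -0.49 (adjusted p = 0.000824). Trf, the transferrin gene, differed by -0.41, Gjb1, the connexin 32 gap junction gene, by -0.35, and Mag, a myelin adhesion protein, by -0.23. Mbp, the myelin basic protein gene, differed by 0.13 with overlapping arrays, so myelin genes were not on 1 side throughout. None of 9 precursor genes was separated, with a median of -0.09.

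Astrocyte genes divided. Of 19 tested, 4 lay higher and 6 lower in cortex on every array, with a median of -0.13. Slc1a2, the main glutamate transporter of forebrain astrocytes, had 4.29, 4.40 and 4.48 in cortex and 4.11, 4.12 and 4.17 in whole brain, a difference of 0.26 (SE 0.07, adjusted p = 0.121). Agt, the angiotensinogen gene of subcortical astrocytes, had 0.34, -0.55 and -1.04 against 0.67, 0.88 and 0.84, a difference of -1.22 (SE 0.34, adjusted p = 0.116). Itih3, a hyaluronan-binding protein gene, had 3.38, 2.41 and 2.51 against 3.61, 3.71 and 3.82, a difference of -0.95 (SE 0.26, adjusted p = 0.116). Cortex replicate 1 was nearest to whole brain in Agt and Itih3, as in the hypothalamic peptides. Without it the differences were -1.59 and -1.25, a description with no test, since leaving out the nearest array widens a difference. Gfap, the astrocyte filament gene, overlapped (difference -0.16) and was called in the other 18 arrays at -0.41 (adjusted p = 0.00198).

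Microglial genes had a median of -0.01, with 2 of 16 higher and 2 lower on every array, and Laptm5, a lysosomal gene of these cells, differed by 0.60 (adjusted p = 0.0983). Endothelial and mural genes had a median of 0.06, with 4 of 18 higher and 0 lower. Acta2, the smooth muscle actin of arterioles, had 0.53, 0.51 and 0.88 in cortex and -0.62, -0.43 and 0.16 in whole brain, a difference of 0.94 (SE 0.22, adjusted p = 0.0962), and 0.15 in the other 18 arrays. Pecam1, an endothelial adhesion gene, differed by 0.29 and Cldn5, a tight junction gene, by -0.15. Of 13 meningeal genes 3 lay lower, with a median of -0.14. Of 8 blood genes tested of 9, 1 lay lower, and Hba-a1, an alpha globin gene, had levels of 4.47, 5.57 and 6.32 in cortex and 3.74, 5.01 and 6.14 in whole brain, which overlap.

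**Figure D3:**
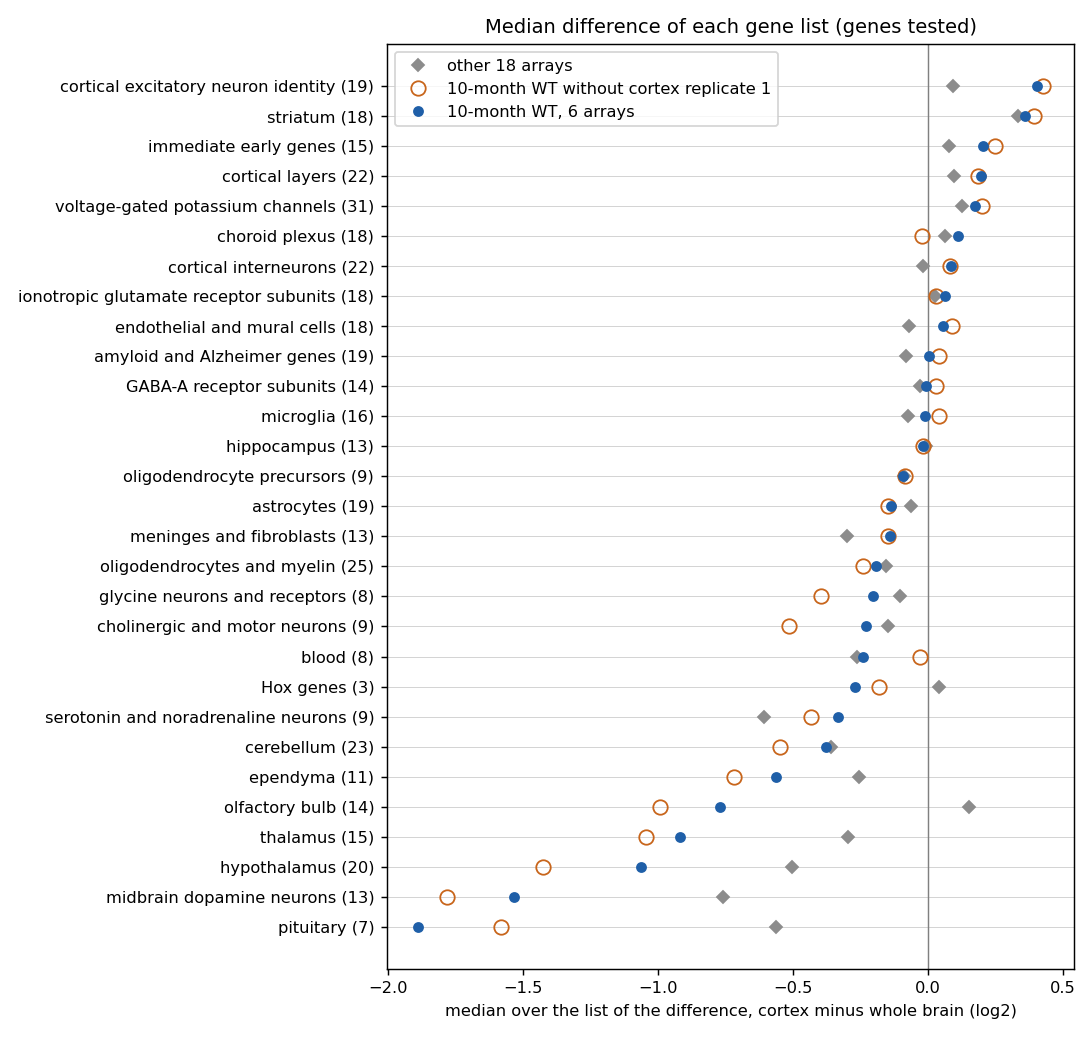
Median difference, cortex minus whole brain (log2), of each of 29 gene lists, with the number of genes tested in brackets, over the 6 arrays (blue dots), without cortex replicate 1 (open orange circles) and over the other 18 arrays (grey diamonds). The cortical glutamatergic list (0.40) and the striatal list (0.36) lie above 0 over the 6 arrays, and the dopamine list lies at -1.53, or -0.76 over the other 18 arrays.

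Genes of excitability and activity gave a narrower range. Of 31 voltage-gated potassium channel genes tested of 32, 11 lay higher in cortex on every array and 2 lower, the median was 0.17, and the variance trend called 6 higher. Kcnq3, a subunit of the M-current, had levels of -0.59, -0.64 and -0.62 in cortex and -1.04, -1.10 and -1.12 in whole brain, a difference of 0.47 (SE 0.06, adjusted p = 0.0628). The levels of each tissue were close together and did not overlap, and the other 18 arrays gave 0.50 (adjusted p = 1.7e-05). Kcnh7, an ERG channel, differed by 0.65 (adjusted p = 0.0967), and Kcnc1 and Kcnh5 overlapped, at 0.22 and 0.32.

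The ionotropic glutamate receptor subunits were evenly divided, 4 higher and 4 lower of 18, with a median of 0.07. Grin2a, Gria3 and Grin2b, of NMDA and AMPA receptors, differed by 0.39, 0.29 and 0.17. Gria4 and Grin3b, of the same 2 families, differed by -0.27 (adjusted p = 0.106) and -0.82 (adjusted p = 0.0836), and the other 18 arrays gave -0.71 for Grin3b (adjusted p = 0.0168). Of 14 GABA-A subunits tested of 15, 1 lay higher and 2 lower, Gabra6 of granule cells among the latter. Of 15 immediate early genes 4 lay higher and 0 lower, with a median of 0.21. Egr4 differed by 0.44 (adjusted p = 0.136) and Junb by 0.23, and the better known Egr1 and Arc, at 0.34 and 0.35, overlapped.

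Of 19 amyloid and Alzheimer genes tested of 20, 2 lay higher in cortex and 2 lower, and the median was 0.00. App, the amyloid precursor protein gene and endogenous counterpart of the Tg2576 transgene, had levels of 5.99, 6.07 and 6.02 in cortex and 5.77, 5.82 and 5.80 in whole brain. The arrays of each tissue lay close together without overlap, and the difference was 0.23 (SE 0.06, 1.18-fold, adjusted p = 0.106, with the trend 0.0216). The other 18 arrays gave -0.03 for App (adjusted p = 0.651).

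The genes furthest apart were read by a rule set after the values were seen, which took 15 genes in each direction by size among those without overlap, with an unadjusted p under 0.05, and with the higher tissue detected on all 3 arrays and above the median level of tested probes. They are a description with no test of the choice. In cortex Acta2 led at 0.94. Pde7b, a cAMP phosphodiesterase, had -0.67, -0.69 and -0.52 in cortex and -1.49, -1.61 and -1.42 in whole brain, a difference of 0.88 (SE 0.08, adjusted p = 0.059), and 0.80 in the other 18 arrays (adjusted p = 8.3e-05). Nppc, the C-type natriuretic peptide gene, differed by 0.86 (adjusted p = 0.0823), and Ptpn4, a tyrosine phosphatase gene, by 0.80 (adjusted p = 0.0628), with 0.75 in the other 18 arrays for the latter. Slc7a5, the large amino acid transporter of the blood-brain barrier, had 3.29, 3.23 and 3.29 in cortex and 2.64, 2.57 and 2.52 in whole brain, a difference of 0.69 (SE 0.06, adjusted p = 0.059). It was -0.14 in the other 18 arrays, and the 2 probes of Slc7a5 differed by 0.12 and 0.69 within the 6 arrays. Among the 15 genes lower in cortex were Slc6a3, Ebf3 and Gabra6, the last well above background on 1 cortex array. Ebf3, a transcription factor of the early B-cell factor family, had -2.29, -3.55 and -3.35 in cortex and -0.40, -0.05 and -0.04 in whole brain, a difference of -2.90 (SE 0.34, adjusted p = 0.0628, with the trend 0.0177), and -1.36 in the other 18 arrays. Syt10, a synaptotagmin of olfactory bulb neurons, had 1.53, 1.27 and -0.02 against 3.53, 3.21 and 2.33, a difference of -2.10 (adjusted p = 0.0943), and -2.20 in the other 18 arrays (adjusted p = 0.00139). Sfrp5, a secreted Wnt antagonist, differed by -1.86 (adjusted p = 0.0814). The 15 differences in the direction of cortex ranged from 0.69 to 0.94 and the 15 in the direction of whole brain from -4.58 to -1.71.

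**Figure D4:**
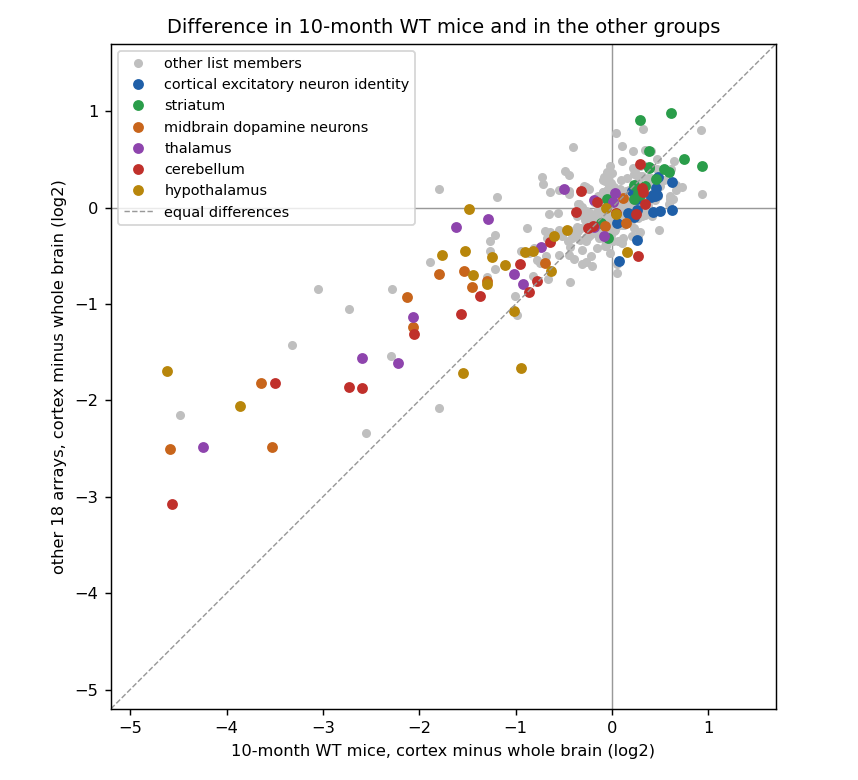
Difference, cortex minus whole brain (log2), of each tested member of the gene lists in WT mice at 10 months (x axis) and over the other 18 arrays (y axis), with a dashed line of equality and with slide running with tissue on both axes. Slc6a3 lies at -4.58 on the x axis and -2.50 on the y axis, and Pdyn at 0.62 and 0.99.

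Whether the tissue difference itself changed with age or genotype was tested with interaction terms, which share the 10-month WT arrays with the comparison above. Between 10 and 17 months in WT mice, 109 of 39852 probes (0.274%) had a higher and 172 (0.432%) a lower cortex minus whole brain difference at the younger age. Among the gene lists 2 of 9 Hox genes tested there were called, Hoxb4 and Hoxb5, and no gene of the other lists was. Both were well above background only on the 3 whole brain arrays of 17 months. They thus entered the test through the group where they are high. Between WT and Tg2576 mice at 10 months, 0 of 39994 probes passed in limma, with 4361 (10.9%) at an unadjusted p under 0.05. Slide ran with these terms, since the 17-month WT whole brain arrays lay on slide 3 and the 10-month ones on slide 2. Over 24 arrays the age term called 0 probes in limma with slide as a random block (4500 at an unadjusted p under 0.05) and 7 as a fixed block, and the genotype term 0 and 24. Without such a block, the count for age ranged from 0 to 1530 when single arrays were left out, and was 11 without 10-month cortex replicate 1. For genotype it was 0 to 354, the highest without Tg2576 whole brain replicate 1.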

How the data were processed

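Total RNA of cortices or whole brains was labelled with Cy3 and hybridised to Agilent mouse 8x60K gene expression arrays. The authors read the arrays with Feature Extraction 10.7.3.1 and deposited, per spot, the background-subtracted processed signal, median intensity and background intensity, and detection marks. Their table of log2 values, deposited beside these files, lay within 0.01 of the log2 processed signal minus the 75th percentile of the array for at least 99.8% of values on each array. That log2 value was computed here for non-control probes, spots marked as outliers left out and spots of a probe averaged, and 7 probes miss a spot value on 1 of the 6 arrays. Probes well above background on 2 or more arrays of a group were tested with limma 3.58.1 (lmFit, eBayes, Benjamini-Hochberg) in R 4.3.3 with the data.table package (version 1.17.8), on the 6 arrays alone. RefSeq symbols matched 26056 probes of 19752 genes, of which 1 probe a gene, the one brightest over the 24 mRNA arrays, was used. No coordinates of the array design were used, and promoters are RefSeq GRCm38.p6. The members and gene lists were chosen with earlier results of these data known. Named genes are called genes, lead genes of each list, 4 hypothalamic peptide genes, of each interaction the 5 called genes with the largest change, and, by a rule set after values were seen, members of the 15 genes furthest apart in each direction. A few listed genes are not reported here. The computation was tested on simulated data. Alternatives were quantile or median scaling, the authors' log2 values, normexp (offset 50) on median intensities, other filters, all 24 arrays, replicate and slide blocks, the methods' t-test, array weights, a variance trend, and leaving out each array.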

Additional observations from a re-analysis of the deposited data

Results flagged for a closer look

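The cortex minus whole brain difference of WT mice differed between 10 and 17 months for 281 probes of limma's interaction term (adjusted p under 0.05), which name 163 genes. The value given for a gene is its difference at 10 months minus that at 17 months. Hoxb5, a hindbrain homeobox gene, had a change of 3.45 (adjusted p = 0.0372), with a difference of -0.93 at 10 months and -4.38 at 17 months. Its mean level was -7.39 ± 0.50 (SD, n = 3) in cortex and -6.46 ± 0.46 in whole brain at 10 months, and -7.69 ± 0.50 and -3.31 ± 0.49 at 17 months. Hoxb4, of the same cluster, had a change of 2.80 (adjusted p = 0.0309), with -0.70 at 10 months and -3.51 at 17 months. Both probes were well above background on the 3 whole brain arrays of 17 months and on 0 of the other 9, so they entered the test through that group, and their other levels, differences and changes rest on background signal and have no exact size. Fbxw13 changed by -1.68 (adjusted p = 0.0372), from -0.69 to 0.99, Fcmr, an IgM receptor gene, by 1.55 (adjusted p = 0.0424), from -0.26 to -1.81, and Gimap4, a lymphocyte GTPase gene, by -1.42 (adjusted p = 0.0372), from -0.25 to 1.17. Without 10-month cortex replicate 1 the limma adjusted p was 0.0712 for Hoxb5, 0.0259 for Hoxb4, 0.075 for Fbxw13, 0.0884 for Fcmr and 0.0792 for Gimap4, and 11 probes passed in all. The 17-month whole brain arrays lay on a slide of their own among the WT arrays, so age and slide cannot be told apart within these. Over 24 arrays with slide as a random block 0 probes passed, and the adjusted p of the 5 genes was 0.211 to 0.236. With slide as a fixed block 7 probes passed, Hoxb4 among them (adjusted p = 0.0352) and the other 4 genes not (adjusted p 0.124 to 0.919).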

How the results depend on the processing

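The 4 probes called depended on the setting. The count was 6 with quantile scaling, 19 with median scaling, 4 with the authors' log2 values, 2 without the filter on dim probes, 7 with array weights, 812 over probes detected on all 6 arrays and 3078 with normexp on median signals. It was 2144 in a fit of all 24 arrays (1236 without cortex replicate 1), 180 with slide as a random block, 3312 with a variance trend and robust estimation and 2588 with that and without cortex replicate 1 (these last settings and the array weights were chosen after seeing the data). A tissue difference common to 4 groups over 24 arrays was called for 14186 probes, or 430 with slide as a fixed block. The methods' t-test gave 8574 probes unadjusted, 1104 of them past 1.5-fold, and 14 after Benjamini-Hochberg adjustment. Deviations of replicates of the same number in the 2 tissues had correlations of 0.03, -0.03 and 0.03 for replicates 1, 2 and 3. The samples were not treated as paired. Single probes did deviate together, since 5 were over 8-fold above both other replicates in both tissues for replicate 1, against 0 for replicates 2 and 3. Whether samples of the same number came from the same mouse was not tested. The replicate block left 0 probes, with 7513 at an unadjusted p under 0.05. Leaving out 1 array gave 0 to 38 probes (0 without cortex replicate 2, 38 without cortex replicate 1). Over these settings the adjusted p of Chrna6 ran from 2.9e-05 to 0.324 and that of Agtr2 from 0.0084 to 0.295. The 281 age interaction probes became 59 with median scaling, 171 in the 24-array fit, 0 with the replicate block, 0 without the filter, 0 with slide as a random and 7 as a fixed block over 24 arrays and 0 to 1530 with 1 array left out, and the 0 genotype interaction probes 24 with slide as a fixed block and 0 to 354 with 1 array left out. Of 2903 values of 127 genes, 2490 kept direction and call, 373 gained a call, 20 lost one and 20 changed sign. The tissue difference common to 4 groups was -0.016 for Fezf2, -0.079 for Nr4a2 and -0.10 for Sst, and with slide as a fixed block -0.018 for Lmx1b, -0.67 for Slc18a3, -0.11 for Rasgrf2, 0.070 for Pvalb, -0.054 for Wfs1, 0.027 for Pomc, 1.51 for Gh and 1.49 for Prl, and Eomes lay between -1.28 and 0.014 with 1 array left out, the latter without whole brain replicate 1, Chat between -0.082 and 0.023, Slc18a3 between -0.083 and 0.21 (-0.15 with slide as a random block) and Slc5a7 between -0.28 and 0.11. The cause was not tested. Scaling moved the median of all probes by -0.0283 to 0.0135. Probes near background give only bounds.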

Other observations

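A small set of probes was high in replicate 1 of both tissues. Probes over 8-fold above both other replicates in cortex and in whole brain numbered 5 for replicate 1, 0 for replicate 2 and 0 for replicate 3. The probe named lincP21, a long noncoding RNA, had levels of 1.60, -6.89 and -5.72 in WT cortex at 10 months and 1.17, -5.18 and -7.32 in WT whole brain at 10 months. It was also high in Tg cortex replicate 2 at 10 months (1.73) and WT cortex replicate 3 at 17 months (1.33), and the other 20 of the 24 mRNA arrays lay below -5. Between WT and Tg2576 mice at 10 months, where no probe passed the interaction test, Morc2b had 1 of the 3 smallest p-values, with a cortex minus whole brain difference of 0.23 in WT and -0.50 in Tg2576 mice (adjusted p = 0.436 in limma).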
